A study of Homo sapiens with 18 samples.

Results

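The transcripts described here are those of the mitochondrial genome in A549, a human cell line from a lung adenocarcinoma. Every feature of the deposited count table whose identifier starts with MT- was taken, which gave 37 of 44016 features: 13 messenger RNAs (mRNAs), 2 ribosomal RNAs (rRNAs) and 22 transfer RNAs (tRNAs). None was dropped, since the lowest count of any of them in any library was 120. Poly(A) mRNA sequencing of 18 libraries gave 6 groups of 3. The groups were a stable S100A16 knockdown (KD) given 100 µM H2O2 for 2 h, the same KD untreated, a stable hnRNPM KD untreated, a stable MagoHB KD untreated, wild-type (WT) cells given 100 µM H2O2 for 2 h, and WT cells untreated. S100A16 is a calcium-binding protein, hnRNPM binds nuclear RNA and regulates splicing, and MagoHB belongs to the complex that marks exon junctions on spliced mRNA. By its title, the study asks how S100A16 acts on alternative splicing during oxidative stress. WT cells served as control throughout, without a vector-only line. The sources used here do not say how the KDs were made or whether each was 1 clone.

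Human mitochondrial DNA is transcribed from both strands into long precursor RNAs. Most mRNAs and both rRNAs lie between tRNAs, and RNase P and the nuclease ELAC2 cut at the leading and trailing ends of those tRNAs, which frees the RNAs between them. Most of the mRNAs then receive short poly(A) tails, whereas tRNAs receive a CCA end. The mRNAs encode subunits of respiratory complexes I (MT-ND), III (MT-CYB) and IV (MT-CO) and of the ATP synthase (MT-ATP), and the rRNAs and tRNAs serve their translation inside the organelle. Light-strand transcription supplies only MT-ND6 and a minority of the tRNAs, and complex I is a main site where mitochondria make superoxide, a source of H2O2.

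In the file, 12 mRNAs, both rRNAs and 14 tRNAs lie on the plus strand, and MT-ND6 and 8 tRNAs lie on the minus strand. All 37 matched the position and strand of the same gene in GENCODE 29 on GRCh38. The 5 tRNA genes that sit side by side between MT-ND2 and MT-CO1 are shown here, in letters of DNA, because all 5 of their rows fell under H2O2 in WT cells. They were read from the GENCODE 29 transcripts (GRCh38), in the sense of the tRNA, with the anticodon in capitals. The cluster opens with the plus-strand MT-TW (chrM:5512-5579) and goes on with 4 minus-strand genes, MT-TA (chrM:5587-5655), MT-TN (chrM:5657-5729), MT-TC (chrM:5761-5826) and MT-TY (chrM:5826-5891).
MT-TW: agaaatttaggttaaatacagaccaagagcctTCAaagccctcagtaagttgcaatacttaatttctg
MT-TA: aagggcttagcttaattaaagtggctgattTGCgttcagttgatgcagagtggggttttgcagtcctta
MT-TN: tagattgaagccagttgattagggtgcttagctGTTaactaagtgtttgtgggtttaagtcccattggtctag
MT-TC: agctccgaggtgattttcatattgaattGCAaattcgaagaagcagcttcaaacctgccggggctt
MT-TY: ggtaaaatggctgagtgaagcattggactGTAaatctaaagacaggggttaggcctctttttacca
These read tryptophan, alanine, asparagine, cysteine and tyrosine codons. A gap of 31 bases between MT-TN and MT-TC holds the origin of light-strand replication, and MT-TC and MT-TY share 1 base. The other tRNAs shown are plus-strand genes to which the KD results refer: MT-TT (chrM:15888-15953, threonine), directly after MT-CYB; MT-TI (chrM:4263-4331, isoleucine), directly after MT-ND1; and MT-TL1 (chrM:3230-3304, leucine), between MT-RNR2 and MT-ND1.
MT-TT: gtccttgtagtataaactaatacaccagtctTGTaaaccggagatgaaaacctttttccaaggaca
MT-TI: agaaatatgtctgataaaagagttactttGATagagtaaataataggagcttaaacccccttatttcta
MT-TL1: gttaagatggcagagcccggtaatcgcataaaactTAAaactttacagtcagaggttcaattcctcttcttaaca

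These rows need a reading that fits the assay. The labels' protocol selects RNA with oligo(dT) beads and describes no step that keeps the strand, and no source used here gives the strand setting of the counting. RNA of either strand could thus be counted at a row. Minus-strand RNA, of a tRNA or of MT-ND6, and plus-strand RNA across the same bases cannot be told apart. Nor can mature tRNA and a precursor or mRNA that still carries the tRNA. Neighbours share bases in 5 pairs: MT-TI and MT-TQ on opposite strands, MT-TC and MT-TY, MT-ATP8 and MT-ATP6, MT-ATP6 and MT-CO3, and MT-ND4L and MT-ND4. In bulk libraries, fewer cells of a kind and less RNA per cell cannot be told apart.

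Library totals ran from 36612997 to 51406431 counts. The knocked-down genes came out as labelled: S100A16 mRNA stood at 5.6% of WT in the KD under H2O2 and at 7.11% untreated, HNRNPM at 20.8% and MAGOHB at 34.8%. Each was also below untreated WT cells in another KD: S100A16 had 52.1, 73.5 and 56.3 CPM (counts scaled to library size) in the MagoHB KD, against 116, 120 and 119 CPM in untreated WT cells. MAGOHB had 76.9, 67.9 and 54.5 CPM in the hnRNPM KD and 97.6, 99.95 and 94.2 CPM in the untreated S100A16 KD, against 147, 156 and 146 CPM in untreated WT cells. HNRNPM had 1228, 1177 and 1170 CPM in the untreated S100A16 KD and 1599, 1149 and 1514 CPM in the MagoHB KD, against 1771, 1795 and 1733 CPM in untreated WT cells. One library in each untreated KD stood apart from its replicates, by a chi-square per degree of freedom between libraries of 30 to 64.9 where all other pairs of replicates gave 3.09 to 5.59. They were untreated S100A16 KD 1, hnRNPM KD 3 and MagoHB KD 2, and results that rest on them are given with and without them. The epithelial keratin mRNAs KRT8 and KRT18 were abundant in all libraries, whereas KRT19 (0.545 to 1.37 CPM) and EPCAM (2.09 to 6.57 CPM) were low and the alveolar type II markers NKX2-1, SFTPA1, SFTPB and SFTPC were at or under 0.205 CPM. Of the leukocyte, endothelial and fibroblast markers, PTPRC, CD3E, PECAM1, VWF, CDH5, DCN and LUM were at or under 1.38 CPM, and CD68 and COL1A1 were not. Nothing in the labels says that replicates came from separate cultures, so p-values measure the spread between these libraries.

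Levels between genes are compared per length, on the authors' deposited RPKM (reads per kilobase of exon, scaled to library total). In untreated WT cells MT-CO3, which encodes a subunit of complex IV, had the highest level at 21120 ± 667 RPKM (SD, n = 3). MT-ATP6, a subunit of the ATP synthase, followed at 18100 ± 567 RPKM, MT-RNR2, the large rRNA, at 15950 ± 604 RPKM and MT-ND4L, a complex I subunit, at 10710 ± 583 RPKM. By group means these 4 held the first 4 ranks, in that order, in all 6 groups, but some neighbours lay within each other's SD. In the MagoHB KD MT-CO3 was at 12370 ± 812 RPKM, MT-ATP6 at 11550 ± 452 RPKM and MT-RNR2 at 11500 ± 285 RPKM, and in the hnRNPM KD MT-CO3 was at 18710 ± 2510 RPKM and MT-ATP6 at 17600 ± 1550 RPKM (SD, n = 3). Going down the order in untreated WT cells, neighbouring genes did not overlap in their 3 libraries as far as MT-CO2 (3953 RPKM), and from MT-ND1 (3534 RPKM) through MT-ND5, MT-ND6 and MT-TC to MT-ND2 (3066 RPKM) each overlapped the next.

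The small rRNA was far down that order. MT-RNR1 had 343 ± 14.1 RPKM in untreated WT cells, rank 34 of 37, although the large and small rRNA are made from the same precursor. It counted 1.32 ± 0.102 reads per 100 of MT-RNR2 there (SD, n = 3). At the low end were MT-TF (144 RPKM), MT-TQ (133 RPKM) and MT-TM (93.6 RPKM), and the highest tRNA rows were the minus-strand MT-TC (3090 RPKM) and MT-TY (2681 RPKM), which lay among the mRNAs. A poly(A)-selected library need not show the levels of rRNAs, tRNAs or untailed mRNA in the cell, so differences between classes describe these libraries.

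**Figure D1:**
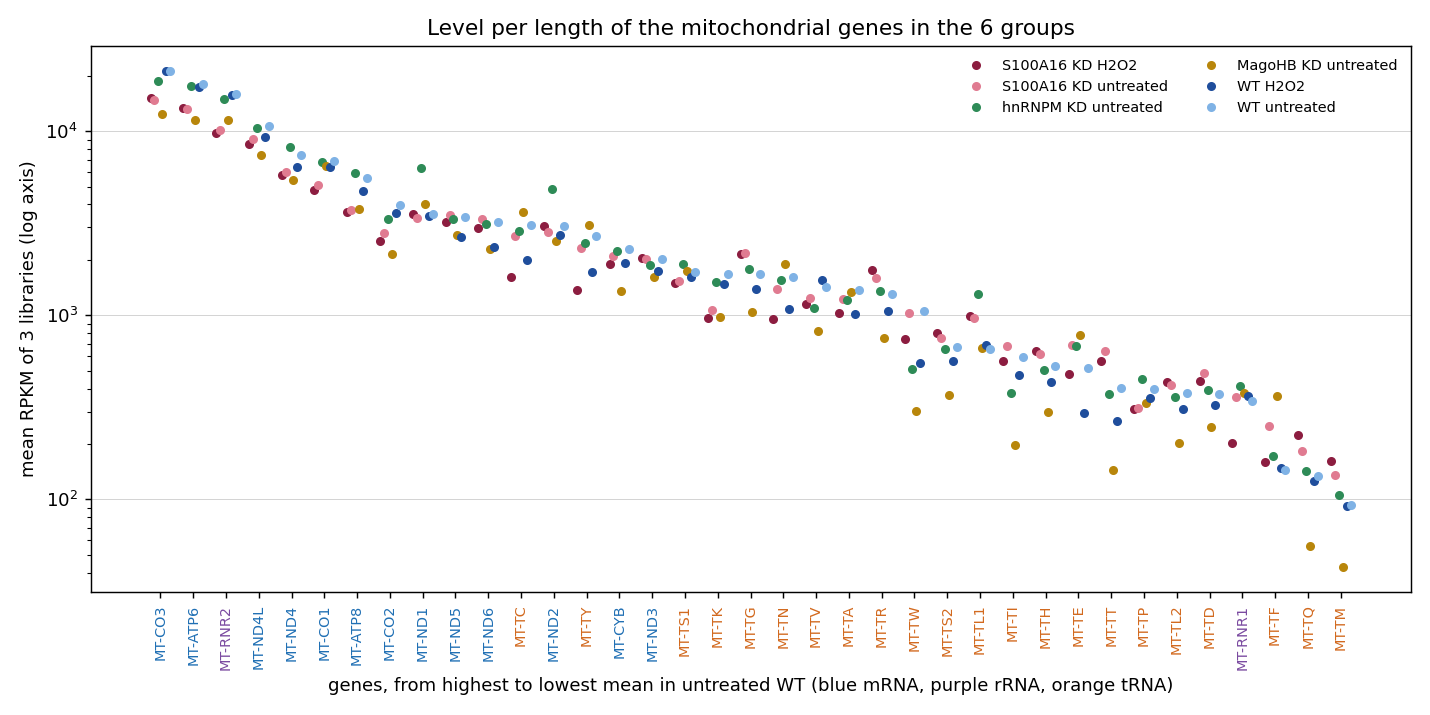
Mean level of each of the 37 mitochondrial transcripts in each group (n = 3), in the authors' deposited RPKM on a log axis, with genes from the highest to the lowest in untreated WT cells and a colour for each group. The 2 rRNAs lie far apart (MT-RNR2 at 15950 and MT-RNR1 at 343 RPKM in untreated WT cells), and the spread between genes is far wider than the spread between groups.

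Mitochondrial rows took 7.48 ± 0.0323% of all counts in the S100A16 KD under H2O2, 7.72 ± 0.152% in the untreated S100A16 KD, 10.2 ± 0.545% with hnRNPM knocked down, 7.37 ± 0.13% with MagoHB knocked down, 9.46 ± 0.253% in WT cells under H2O2 and 10.1 ± 0.25% in untreated WT cells (SD, n = 3 each). All libraries of the S100A16 and MagoHB KDs thus lay below all WT libraries, and the hnRNPM KD overlapped untreated WT. An exact permutation test of 3 libraries against 3 cannot go below p = 0.10, so these shares carry no test. The tRNA rows together made up 1.73% of mitochondrial counts in the S100A16 KD under H2O2, 1.98% in the untreated S100A16 KD, 1.46% with hnRNPM and 1.79% with MagoHB knocked down, 1.26% in WT cells under H2O2 and 1.52% in untreated WT cells. Such ratios within the mitochondrial counts do not depend on how libraries were scaled to each other. Only the S100A16 KD, treated and untreated, and the MagoHB KD had every library above every WT library.

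Among the tRNA counts, the minus-strand rows held 39.9%, 38.4% and 40.2% in the S100A16 KD under H2O2, 45.8%, 47.1% and 45.8% in the untreated S100A16 KD, 48.6%, 49.9% and 56.2% with hnRNPM knocked down, 65.6%, 66.8% and 67.2% with MagoHB knocked down, 46.6%, 46.6% and 46.9% in WT cells under H2O2, and 52.9%, 50.8% and 49.8% in untreated WT cells. The treated libraries thus lay below the untreated ones in both WT cells and the S100A16 KD. The MagoHB KD lay far above all other libraries. The rRNAs took 20.6% of mitochondrial counts in the S100A16 KD under H2O2, 21.1% in the untreated S100A16 KD, 23.2% in the hnRNPM KD, 24.8% in the MagoHB KD, 26.4% in WT cells under H2O2 and 24.9% in untreated WT cells. The mRNA MT-ND6 adjoins MT-ND5 end to end on the other strand. Per 100 reads of MT-ND5, MT-ND6 had 23.4, 24.8 and 23.9 reads in the MagoHB KD. It had 26.0, 25.3 and 25.0 in WT cells under H2O2, against 26.6, 28.5 and 26.8 in untreated WT cells. Both groups thus lay below untreated WT cells, by a small margin, whereas the other KD groups overlapped them.

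**Figure D2:**
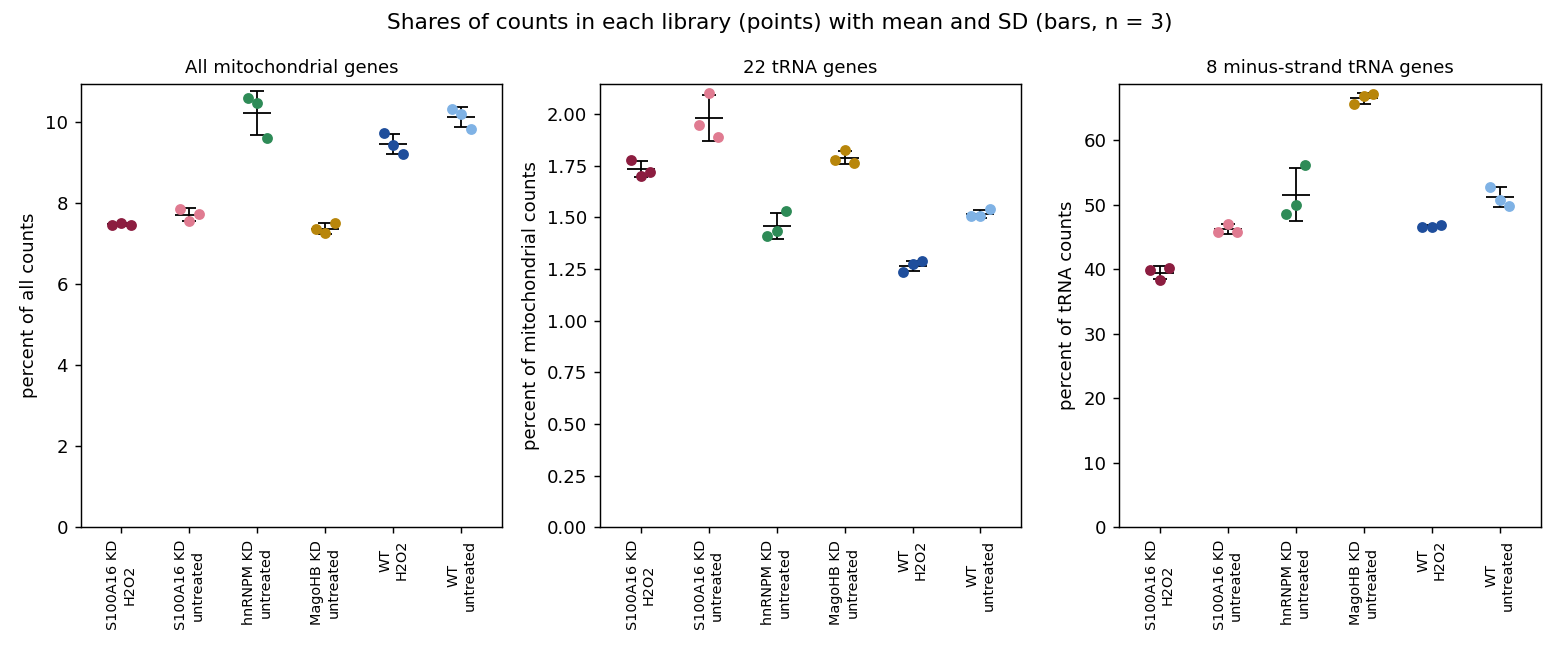
Share of all counts on mitochondrial rows, share of mitochondrial counts on tRNA rows, and share of tRNA counts on minus-strand tRNA rows, each in percent, with 1 point per library, long bars for group means and error bars for SD (n = 3). Minus-strand tRNA rows held 66.5% of tRNA counts in the MagoHB KD, above every library of the other groups, and 39.5% in the S100A16 KD under H2O2, below every library of the other groups.

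In WT cells under H2O2, a cluster of tRNA rows fell, as did MT-TT and the mRNAs at the far end of the plus-strand precursor. The row of MT-ND6, which lies between those mRNAs on the other strand, fell too, though it may count plus-strand RNA. By edgeR's quasi-likelihood test with Benjamini-Hochberg adjustment over the 22382 genes tested, 9 of the 37 fell and 0 rose at an adjusted p under 0.05, where 0.223% of all genes were called. These 9 were among 17 genes called lower in the whole table, or 0.076% of genes tested. DESeq2 called 10 lower and 0 higher, where it called 99 of all 44016 genes fitted. The called members were the 5 tRNAs from MT-TW to MT-TY, MT-TT, and the mRNAs MT-ND5, MT-ND6 and MT-CYB. The median log2 change was -0.22 over all 37, -0.52 over minus-strand tRNAs (4 of 8 called), -0.28 over plus-strand tRNAs (2 of 14 called) and -0.22 over mRNAs (3 of 13 called), against -0.0043 over all genes tested.

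MT-TW changed most. It had 38.7, 43.3 and 40.5 CPM in WT cells under H2O2, against 75.9, 75.8 and 84.9 CPM in untreated WT cells, a log2 fold change of -0.95 (SE 0.0843, adjusted p = 3.49e-07). All 3 treated libraries lay below all untreated ones, with a wide gap. MT-TY had 125, 125 and 117 CPM under H2O2, against 204, 193 and 184 CPM untreated (log2 -0.66, SE 0.0713, adjusted p = 7.62e-06). MT-TN had 85.9, 85.6 and 84.0 CPM under H2O2, against 134, 130 and 123 CPM untreated (log2 -0.60, SE 0.0572, adjusted p = 1.22e-06). Here too every treated library lay below every untreated one.

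MT-TA, the neighbour of MT-TW across a gap of 7 bases, fell to 76.2 ± 2.26 CPM under H2O2 against 104 ± 3.93 CPM untreated (SD, n = 3; log2 -0.45, adjusted p = 0.000372). MT-TW counted 52.6, 56.0 and 52.1 reads per 100 of MT-TA under H2O2, against 70.5, 72.3 and 85.0 untreated, with no overlap. The 4 minus-strand genes of the cluster together took 0.415% of mitochondrial counts under H2O2 and 0.587% untreated. Their flanking mRNAs moved less: the log2 change was -0.18 for MT-ND2 (adjusted p = 0.705) and -0.11 for MT-CO1 (adjusted p = 0.772).

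At the far end of the plus-strand precursor, MT-TT had 19.5, 18.8 and 18.9 CPM under H2O2, against 29.2, 28.7 and 29.4 CPM untreated (log2 -0.61, SE 0.0766, adjusted p = 9.41e-05). Each group was tight and they lay far apart. MT-ND5 and MT-ND6, complex I mRNAs that meet end to end on opposite strands, had log2 changes of -0.37 (adjusted p = 0.00156) and -0.47 (adjusted p = 0.00232). MT-ND6 had 1417, 1325 and 1266 CPM under H2O2, against 1836, 1956 and 1753 CPM untreated. MT-CYB, the subunit of complex III, was at -0.27 (adjusted p = 0.0178). That call ended in 5 of 6 fits that each left out 1 library, all but the one without WT untreated 3, at adjusted p from 0.0817 to 0.171.

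The front of the genome did not pass the test. MT-RNR1 had 405, 354 and 375 CPM under H2O2, against 343, 364 and 365 CPM untreated (log2 0.08, adjusted p = 0.995), and MT-RNR2 averaged 26720 ± 1420 CPM under H2O2 and 27200 ± 1250 CPM untreated (log2 -0.03, adjusted p = 0.992). The 10 mRNAs that were not called had log2 changes from -0.26 (MT-ATP8) to -0.0012 (MT-CO3). MT-TE, a minus-strand tRNA beside MT-ND6, had 24.3, 21.6 and 20.2 CPM under H2O2, against 41.9, 39.2 and 36.5 CPM untreated, and at log2 -0.83 (SE 0.171) it stayed above the threshold (adjusted p = 0.0858). A fit of the 2 WT groups alone, which also filtered and scaled on those libraries, called 22 lower and 0 higher. It called 555 of the 19803 genes tested, where the main fit called 50 of 22382.

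**Figure D3:**
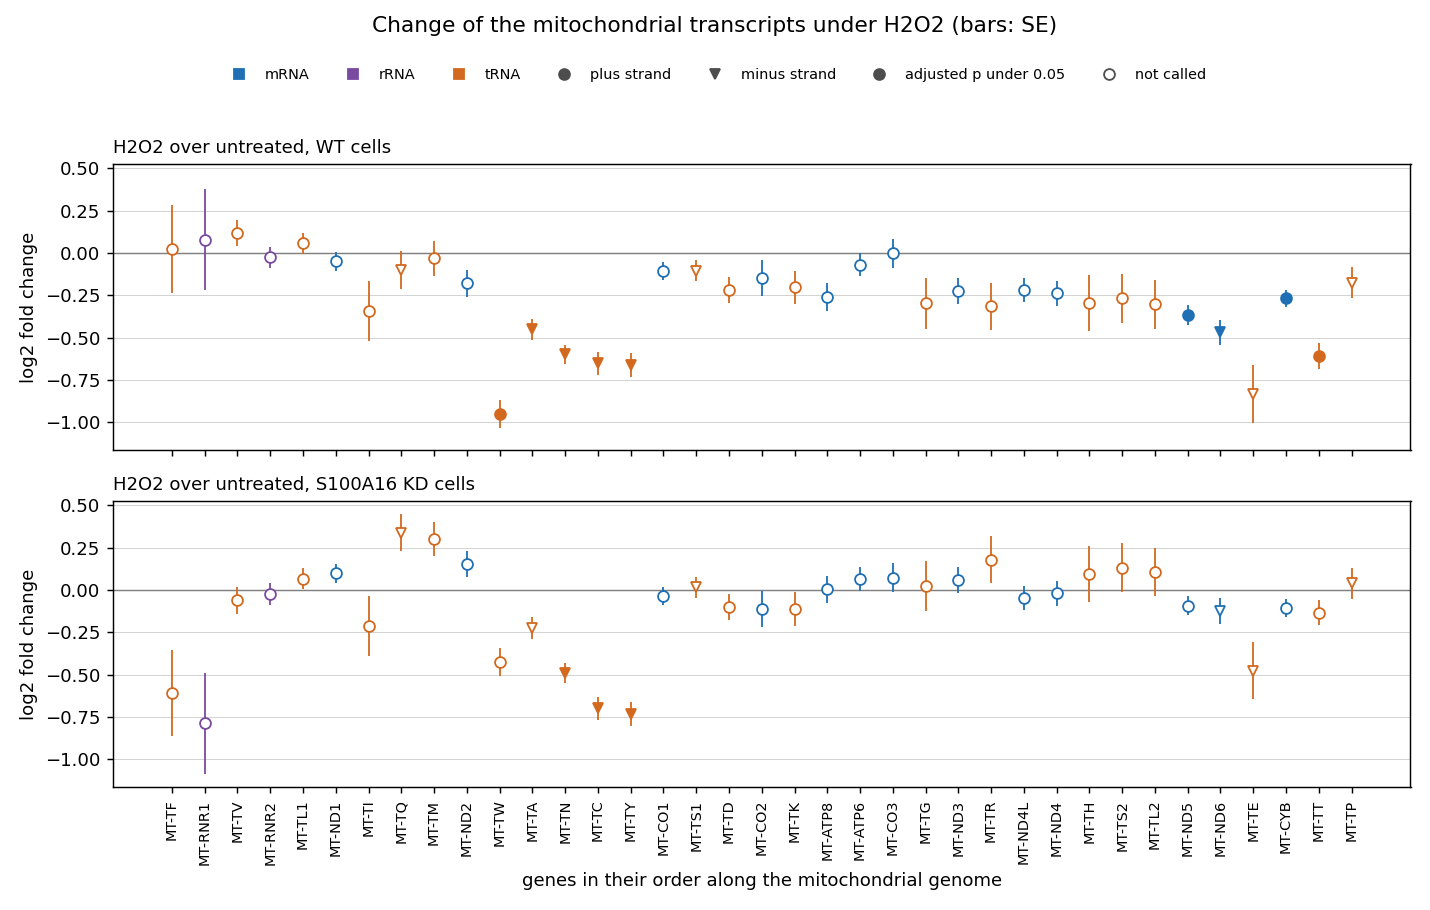
Log2 fold change of each mitochondrial transcript under H2O2 over untreated, in WT cells (upper) and in the S100A16 KD (lower), with genes in genome order, bars for SE, circles for plus-strand and triangles for minus-strand genes, and filled symbols for an adjusted p under 0.05. The run from MT-TW to MT-TY is low in both panels (MT-TY at -0.66 in WT cells and -0.73 in the KD). Of it, MT-TN, MT-TC and MT-TY are called in both. MT-TW and MT-TA are called only in the upper one, as are MT-TT, MT-ND5, MT-ND6 and MT-CYB.

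In the S100A16 KD, MT-TN, MT-TC and MT-TY fell under H2O2, and these were the 3 genes that edgeR called in the whole table (0.0134% of genes tested). DESeq2 called 75 genes, with MT-TW beside these 3 among the members (4 lower and 0 higher). MT-TY had 92.5, 80.9 and 84.3 CPM in the KD under H2O2, against 144, 153 and 131 CPM in the untreated KD (log2 -0.73, SE 0.0716, adjusted p = 1.06e-05). MT-TN had 67.8, 65.4 and 67.1 CPM under H2O2, against 92.4, 99.6 and 89.6 CPM untreated (log2 -0.49, SE 0.0574, adjusted p = 0.000158). Since MT-TC and MT-TY share a base and moved alike (MT-TC log2 -0.70, adjusted p = 1.06e-05), they may count some of the same reads. No library of either treatment overlapped for these 3 genes.

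The other members of the KD did not pass edgeR's test under H2O2, and their median log2 change over all 37 was -0.04, against 0.0082 over all genes. MT-TW had 52.7, 45.1 and 46.4 CPM in the KD under H2O2, against 69.2, 67.3 and 57.4 CPM in the untreated KD (log2 -0.43, SE 0.0836, adjusted p = 0.198). MT-TW was called in 5 of 16 alternatives: by DESeq2 (log2 -0.42, adjusted p = 0.00358), by edgeR with total counts alone (adjusted p = 0.0483), with every gene of at least 1 count (0.00024) and with the 2 KD groups alone (0.00803), and without S100A16 KD untreated 3, the lowest of its group (log2 -0.50, adjusted p = 0.0471). The mRNAs lay between -0.13 (MT-ND6, adjusted p = 0.801) and 0.15 (MT-ND2, adjusted p = 0.761). MT-RNR2 was at -0.02 (adjusted p = 0.984). MT-RNR1 was at -0.79 (adjusted p = 0.655), with 187, 193 and 176 CPM under H2O2 against 550, 223 and 188 CPM untreated, and this value came from S100A16 KD untreated 1: without it the log2 change was -0.15 (adjusted p = 0.999). By a fit of the 2 KD groups alone, 3 members were called higher (MT-TQ, MT-TM and MT-ND2) and 7 lower. That fit called 801 of the 20586 genes tested.

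The 2 responses to H2O2 use different libraries throughout. Across the 37 transcripts, which are not independent replicates, their log2 changes had a Pearson correlation of 0.449 and a Spearman correlation of 0.381, given as a description. The difference between the responses, tested as an interaction, was called for 0 of 37 members by edgeR (of all genes 0.0938% were called, 0.0179% positive and 0.076% negative). At an unadjusted p under 0.05 there were 12 of the 37 members, where 5.07% of all genes lay under it. DESeq2 called 2 (MT-TW and MT-TT), edgeR with every gene of at least 1 count called 4, and a fit of the 4 groups alone called 8 higher and 1 lower. Over all genes, these 3 settings called 38 of 44016, 45 of 44016 and 256 of 21551, in that order. The difference was 0.52 for MT-TW (SE 0.118, adjusted p = 0.166) and 0.47 for MT-TT (SE 0.107, adjusted p = 0.166), where a positive value means a smaller fall in the KD. For MT-TC and MT-TY it was -0.05 and -0.07 (SE 0.0943 and 0.101, adjusted p = 1 for both). In the main fit edgeR called MT-TW, MT-TA, MT-TT, MT-ND5, MT-ND6 and MT-CYB in WT cells and not in the KD. Its interaction test does not show this to be a difference between the responses. The interaction of MT-TT was called in 3 of 22 alternatives, that of MT-TW in 2 of 22, and that of MT-ND5 and of MT-ND6 in 1 of 22 each. The interaction was positive for 13 of 13 mRNAs, from 0.03 (MT-CO2) to 0.34 (MT-ND6), a count without a test of its own.

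**Figure D4:**
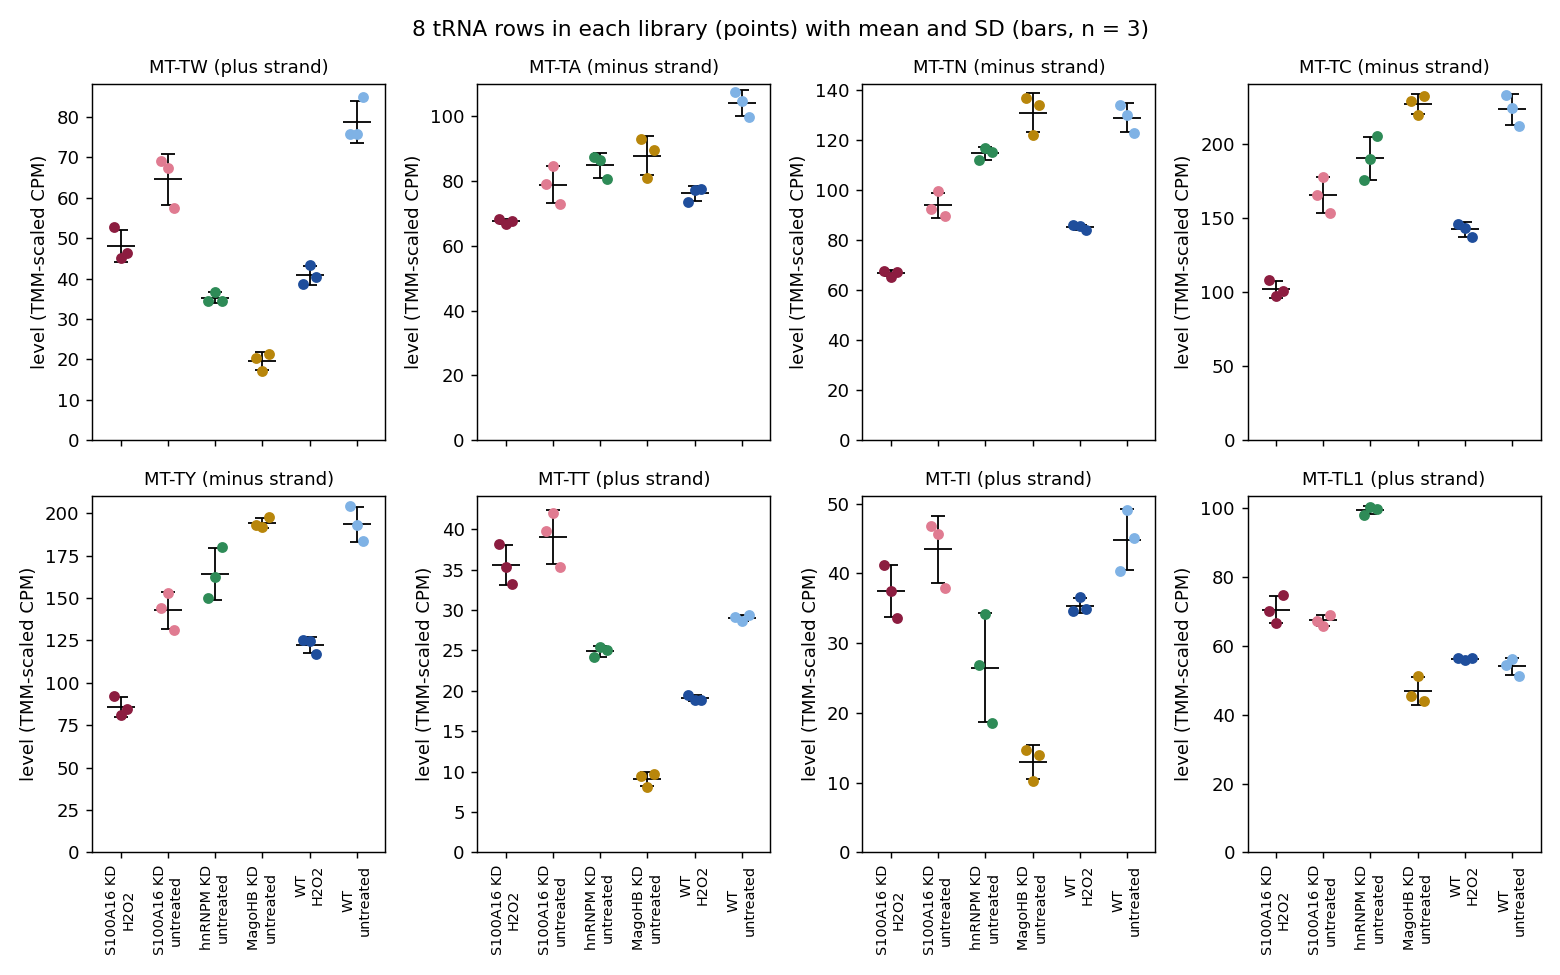
Level of 8 mitochondrial tRNA rows in each library, in TMM-scaled CPM, with a panel for each tRNA, 1 point per library and bars for group means with SD (n = 3). MT-TW is lowest in the MagoHB KD (17.2 to 21.2 CPM), MT-TT is lowest in the same cells (8.08 to 9.73 CPM), and MT-TN, MT-TC and MT-TY in the MagoHB KD overlap untreated WT cells.

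The 3 KD comparisons without H2O2 share the same 3 untreated WT libraries, so likeness among them is not a result. The S100A16 KD under H2O2 was set against the 3 WT libraries under H2O2. The KDs also differed from WT in scale. TMM factors were 0.908 to 0.932 in WT libraries and 0.97 to 1.1 in KD libraries, and scaling by total counts alone moved the median log2 change of all genes to 0.29 in the untreated S100A16 KD, 0.24 in that KD under H2O2, 0.13 for the hnRNPM KD and 0.25 for the MagoHB KD, against 0.06, 0.06, 0.02 and 0.04 with TMM. Small changes are therefore relative to the bulk of other mRNAs, and members that turn round with total counts alone are named.

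In the untreated S100A16 KD the mRNAs and the large rRNA were lower than in WT cells, whereas the plus-strand tRNAs were split. Of the 37 members 3 rose and 23 fell, where 27.6% of all genes rose and 24.8% fell (52.3% in all). With total counts alone, 8 rose and 16 fell, where 12438 of 22382 genes were called in either direction. All 13 mRNAs fell with TMM scaling (median log2 -0.48), whereas total counts alone called 8 of them lower and put MT-ND5 at 0.04 and MT-ND6 at 0.05. The complex IV mRNAs fell by 0.67 to 0.76 and those of the ATP synthase by 0.70 and 0.82, whereas the 7 complex I mRNAs ranged from -0.55 (MT-ND4) to -0.19 (MT-ND6, adjusted p = 0.0389). MT-ND5 was at -0.20 (adjusted p = 0.00587). The MT-ND6 call ended without WT untreated 1 (adjusted p = 0.0518), WT untreated 2 (0.12) or S100A16 KD untreated 3 (0.15).

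MT-RNR2 averaged 14780 ± 1320 CPM in the untreated KD and 27200 ± 1250 CPM in untreated WT cells (SD, n = 3; log2 -0.88, SE 0.064, adjusted p = 2.25e-10). MT-CO3 had 10856, 10452 and 10857 CPM in the KD, against 17801, 18904 and 17628 CPM in WT cells (log2 -0.76, adjusted p = 1.73e-07). The lowest change was that of MT-TK, the lysine tRNA between MT-CO2 and MT-ATP8, with 64.5, 70.9 and 73.9 CPM in the KD against 130, 133 and 123 CPM in WT cells (log2 -0.89, SE 0.099, adjusted p = 3.52e-07). MT-ATP8 at -0.82 (adjusted p = 3.28e-08) and MT-CO2 at -0.73 (adjusted p = 1.51e-05) complete the 5 lowest. MT-TK thus moved with the mRNAs on both of its sides, MT-CO2 and MT-ATP8, and none of these groups overlapped.

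MT-RNR1 gave another result only through 1 library. It had 550, 223 and 188 CPM in the untreated KD, against 343, 364 and 365 CPM in WT cells (log2 -0.16, adjusted p = 0.685). Without S100A16 KD untreated 1, which stood apart from its replicates, MT-RNR1 was at log2 -0.80 (SE 0.104, adjusted p = 2.95e-06). That library also had 3.38 reads of MT-RNR1 per 100 of MT-RNR2, against 1.61 and 1.32 in its replicates.

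The 3 tRNAs that rose in the untreated KD were MT-TT, MT-TL1 and MT-TM. MT-TT had 39.8, 42.0 and 35.4 CPM in the KD, against 29.2, 28.7 and 29.4 CPM in WT cells (log2 0.43, SE 0.0747, adjusted p = 5.31e-05). MT-TL1 was at 0.32 (SE 0.0616, adjusted p = 0.000156). MT-TM, the methionine tRNA, was at 0.29 (adjusted p = 0.0216), a call that ended without S100A16 KD untreated 1 (adjusted p = 0.0692) or 3 (0.0514), or WT untreated 1 (0.0505) or 2 (0.119). Of the 8 minus-strand tRNAs 6 fell, from -0.59 (MT-TP) to -0.40 (MT-TA), and the other two, MT-TQ and MT-TE, were at 0.22 and 0.17 (adjusted p = 0.108 and 0.433).

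Under H2O2, the S100A16 KD set against WT cells showed 9 members higher and 19 lower, where 27.9% of all genes rose and 24.7% fell (52.5% in all). With total counts alone, 15 were higher and 13 lower, where 12225 of 22382 genes were called in either direction. MT-TT had 38.2, 35.3 and 33.2 CPM in the KD under H2O2, against 19.5, 18.8 and 18.9 CPM in WT cells under H2O2 (log2 0.90, SE 0.0765, adjusted p = 2.5e-09). The neighbours MT-TQ, the glutamine tRNA, and MT-TM followed at 0.65 (adjusted p = 4.1e-05) and 0.63 (adjusted p = 2.85e-05). MT-TR, the arginine tRNA, was at 0.55 (adjusted p = 0.0036). MT-TE, the glutamate tRNA, was at 0.52 (adjusted p = 0.0197), a call that ended without WT H2O2 2 or 3 or S100A16 KD H2O2 1. MT-TW was higher in the KD under H2O2 (log2 0.24, adjusted p = 0.0227), whereas untreated it was lower (-0.29, adjusted p = 0.00579). Its call under H2O2 ended without WT H2O2 1 or 3 or S100A16 KD H2O2 1. Untreated, total counts alone put MT-TW at -0.05 (adjusted p = 0.602). Its interaction, which tests the difference between these 2 changes, was not called by edgeR's main fit (adjusted p = 0.166). That interaction was called in 2 of 22 alternatives, DESeq2 among them.

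Both rRNAs and 9 of 13 mRNAs were lower in the KD under H2O2. MT-RNR1 had 187, 193 and 176 CPM in the KD, against 405, 354 and 375 CPM in WT cells (log2 -1.03, SE 0.3, adjusted p = 0.0116), and MT-RNR2 was at -0.88 (adjusted p = 2.26e-10). MT-TK at -0.80 (adjusted p = 1.38e-06), MT-CO2 at -0.70 (adjusted p = 2.56e-05) and MT-CO3 at -0.68 (adjusted p = 7.19e-07) were the next lowest. The 4 mRNAs not called, MT-ND2, MT-ND3, MT-ND5 and MT-ND6, encode complex I subunits, with log2 changes from -0.03 to 0.15 (MT-ND6, adjusted p = 0.0978), and total counts alone called MT-ND3, MT-ND5 and MT-ND6 higher. MT-ND1 was lower with TMM (log2 -0.15, adjusted p = 0.029) and at 0.04 with total counts alone, and MT-TA likewise at -0.17 (adjusted p = 0.0268) and 0.01. The calls of MT-ND1 and MT-TA each ended in some fits without 1 library: MT-ND1 without WT H2O2 1 or S100A16 KD H2O2 1 or 2, and MT-TA without WT H2O2 2 or 3 or S100A16 KD H2O2 1 or 2. MT-TG, the glycine tRNA, at 0.46 (adjusted p = 0.0176), lost its call without WT H2O2 2 or S100A16 KD H2O2 2.

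In the hnRNPM KD, MT-TL1, MT-ND1 and MT-ND2 behind the large rRNA were higher, and the tRNAs that follow each of these mRNAs directly were lower. Of the 37 members 3 rose and 15 fell, where 25.4% of all genes rose and 23.8% fell (49.1% in all). With total counts alone, 3 rose and 6 fell, where 11187 of 22382 genes were called in either direction. The 3 that rose were MT-TL1, MT-ND1 and MT-ND2. MT-TL1 had 98.1, 100.5 and 99.99 CPM in the KD, against 54.6, 56.3 and 51.4 CPM in WT cells (log2 0.88, SE 0.0617, adjusted p = 1.18e-10). MT-ND1 had 6283, 6325 and 5777 CPM in the KD, against 3807, 3779 and 3498 CPM in WT cells (log2 0.73, SE 0.056, adjusted p = 4.95e-10). MT-ND2 had 5571, 5639 and 4218 CPM in the KD, against 3627, 3527 and 3329 CPM in WT cells (log2 0.56, SE 0.0788, adjusted p = 4.23e-06). For all 3 genes every KD library lay above every WT library, with hnRNPM KD 3 the lowest for MT-ND2, which was at 0.68 without it.

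MT-TI lies between MT-ND1 and MT-ND2 and moved the other way. It had 26.8, 34.1 and 18.5 CPM in the hnRNPM KD, against 40.4, 49.0 and 45.1 CPM in WT cells (log2 -0.76, SE 0.18, adjusted p = 0.00266), and without hnRNPM KD 3 it was at -0.56 (adjusted p = 0.00587). MT-TI counted 0.429 ± 0.11 reads per 100 of MT-ND1 in the KD and 1.22 ± 0.134 in WT cells (SD, n = 3). MT-TW, which follows MT-ND2 directly, had 34.5, 36.8 and 34.5 CPM in the KD, against 75.9, 75.8 and 84.9 CPM in WT cells (log2 -1.16, SE 0.0848, adjusted p = 2.2e-10). MT-TQ and MT-TM, between MT-TI and MT-ND2, were at -0.02 and 0.06 (adjusted p = 0.915 and 0.665). Of the tRNAs behind MT-ND1, the one that adjoins it was thus called and the next 2 were not.

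MT-TV, the valine tRNA between the rRNAs, was at -0.49 (adjusted p = 2.04e-05) and MT-TA at -0.30 (adjusted p = 0.000485). MT-RNR2 was at -0.21 (adjusted p = 0.00893), MT-RNR1 at 0.15 (adjusted p = 0.705) and MT-ND6 at -0.15 (adjusted p = 0.106). MT-CO2 at -0.35 (adjusted p = 0.0116) moved to -0.19 (adjusted p = 0.0421) without hnRNPM KD 3. The smallest called falls were those of MT-ND5 (-0.14, adjusted p = 0.0455) and MT-CYB (-0.14, adjusted p = 0.0247). Several such calls ended without 1 library: MT-ND3, MT-ND5, MT-CYB and MT-TK without WT untreated 1, WT untreated 2 or hnRNPM KD 3, MT-TN also without WT untreated 1, MT-CO3 without hnRNPM KD 3 (log2 -0.16, adjusted p = 0.053), MT-TK without hnRNPM KD 2, and MT-ND5 and MT-TT without hnRNPM KD 1. MT-TK at -0.27 (adjusted p = 0.0275) moved to -0.43 without hnRNPM KD 1.

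In the MagoHB KD most transcripts of the plus strand were lower, and the minus-strand genes from MT-TN to MT-TY were not called. Of the 37 members 1 rose and 30 fell, where 23.3% of all genes rose and 22.3% fell (45.5% in all). With total counts alone, 6 rose and 26 fell, where 11009 of 22382 genes were called in either direction. The median log2 change was -0.73 over all 37, -0.71 over mRNAs (12 of 13 lower), -1.02 over plus-strand tRNAs (13 of 14 lower) and -0.09 over minus-strand tRNAs (4 of 8 lower). MT-TW had 20.4, 17.2 and 21.2 CPM in the KD, against 75.9, 75.8 and 84.9 CPM in WT cells (log2 -2.01, SE 0.0875, adjusted p = 7.39e-14). MT-TT had 9.42, 8.08 and 9.73 CPM in the KD, against 29.2, 28.7 and 29.4 CPM in WT cells (log2 -1.68, SE 0.0797, adjusted p = 2.98e-13). MT-TI had 14.7, 10.2 and 14.0 CPM in the KD, against 40.4, 49.0 and 45.1 CPM in WT cells (log2 -1.79, SE 0.187, adjusted p = 2.32e-06). The KD libraries lay far below WT for all 3, and without MagoHB KD 2 the log2 changes of MT-TW and MT-TI were -1.92 and -1.65.

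MT-TQ at -1.46 (adjusted p = 2.14e-09) and MT-TM at -1.34 (adjusted p = 2.98e-09), the neighbours of MT-TI, complete the 5 lowest. MT-TQ is on the minus strand and shares 3 bases with MT-TI, so part of its counts cannot be told apart from those of MT-TI. The adjoining tRNAs MT-TH, MT-TS2 and MT-TL2, for histidine, serine and leucine, moved as a run at -1.03, -1.07 and -1.10 (adjusted p at most 0.000166). Among mRNAs the falls were largest for MT-CO2 (-1.08), MT-CO3 (-0.98) and MT-CYB (-0.96). MT-CO1 fell by 0.30 on the log2 scale (adjusted p = 8.09e-05), and total counts alone put it at -0.09 (adjusted p = 0.0673). MT-ND1, at 3621 ± 114 CPM in the KD and 3695 ± 171 CPM in WT cells (SD, n = 3), was at -0.03 (adjusted p = 0.704), and total counts alone called it higher.

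**Figure D5:**
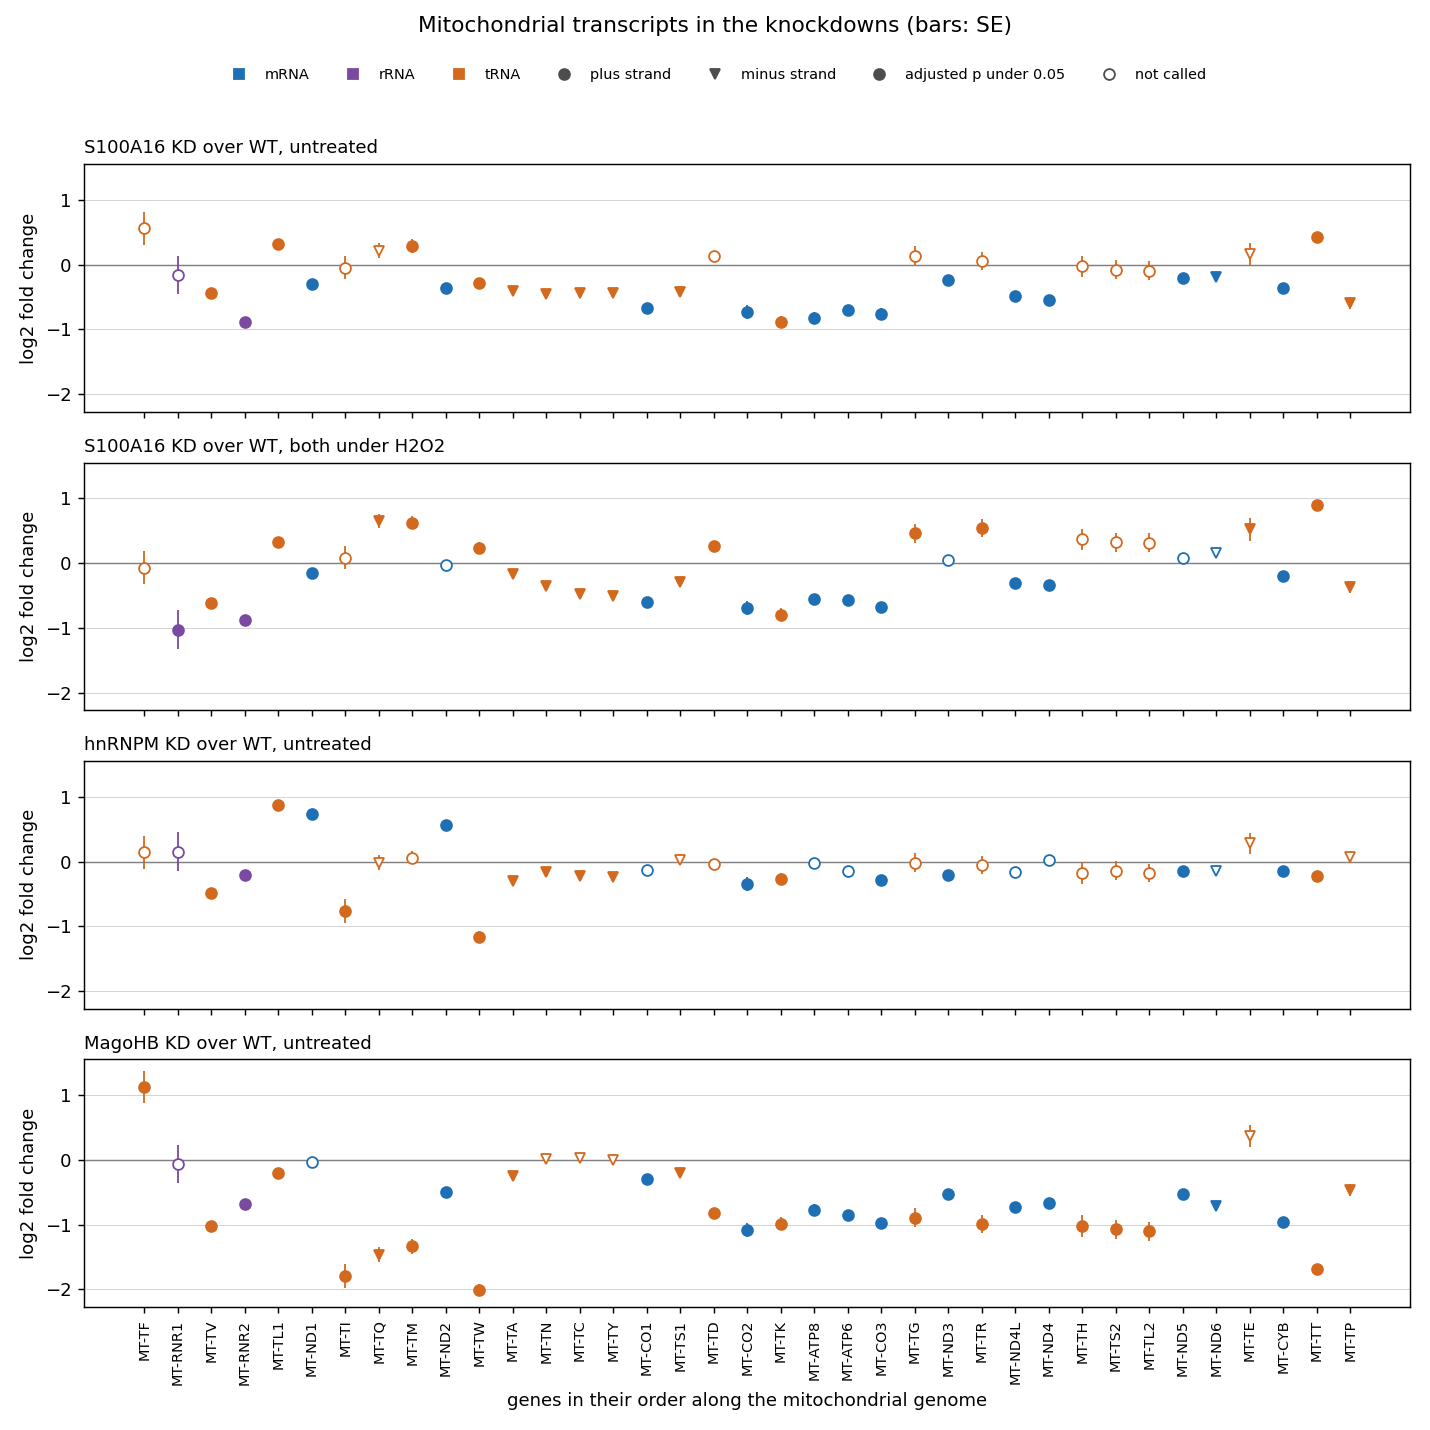
Log2 fold change of each mitochondrial transcript in the S100A16 KD (untreated, then under H2O2) and the KDs of hnRNPM and MagoHB, each over WT cells with TMM scaling, with genes in genome order, bars for SE, circles for plus-strand and triangles for minus-strand genes, and filled symbols for an adjusted p under 0.05. MT-TL1, MT-ND1 and MT-ND2 stand above the line in the hnRNPM KD (0.88, 0.73 and 0.56), and MT-TW is the lowest point in the hnRNPM and MagoHB KDs (-1.16 and -2.01); with total counts alone MT-ND5 and MT-ND6 (S100A16 KD untreated), MT-ND1 and MT-TA (S100A16 KD under H2O2) and MT-TL1 and MT-TS1 (MagoHB KD) change sign.

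The minus-strand cluster beside MT-TW behaved differently in the MagoHB KD. MT-TC had 229, 219 and 232 CPM in the KD, against 233, 224 and 212 CPM in WT cells (log2 0.02, SE 0.0664, adjusted p = 0.8). MT-TN and MT-TY were at 0.02 and 0.0049 (adjusted p = 0.774 and 0.963), and MT-TA at -0.24 (adjusted p = 0.00295). With total counts alone MT-TN, MT-TC and MT-TY were called higher, and MT-TA was at -0.04 and not called (adjusted p = 0.603). MT-TW counted 21.9, 21.2 and 23.7 reads per 100 of its neighbour MT-TA in the KD, against 70.5, 72.3 and 85.0 in WT cells. MT-TA, MT-TN, MT-TC and MT-TY together took 0.917% of mitochondrial counts in the KD and 0.587% in WT cells, and no libraries overlapped.

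MT-TF, the phenylalanine tRNA at the front of the precursor, was the 1 member that rose in the MagoHB KD. It had 16.3, 37.0 and 19.7 CPM in the KD, against 9.35, 11.1 and 13.0 CPM in WT cells (log2 1.13, SE 0.251, adjusted p = 0.00222). MagoHB KD 2, the library that stood apart, was far above its replicates, and without it MT-TF was at 0.69 (adjusted p = 0.000914). The smallest called falls were MT-TS1, a serine tRNA, at -0.19 (adjusted p = 0.0138) and MT-TL1 at -0.20 (adjusted p = 0.00974), which stood at 0.02 and 0.01 with total counts alone. The MT-TS1 call ended without WT untreated 1 (adjusted p = 0.108) and the MT-TL1 call without MagoHB KD 3 (adjusted p = 0.0587). MT-RNR2 was at -0.68 (adjusted p = 1.66e-08), MT-RNR1 at -0.06 (adjusted p = 0.885) and MT-ND6 at -0.71 (adjusted p = 1.25e-07).

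Nuclear genes for the mitochondrial RNA machinery were set beside these rows. The list of 63, all tested, covered the polymerase and nucleoid, processing and modification, and stability and decay. None passed the test under H2O2 by edgeR: 0 were called in WT cells, 0 in the S100A16 KD and 0 in the interaction. At an unadjusted p under 0.05 there were 1, 6 and 5, where 6.6%, 6.77% and 5.07% of all genes lay under it. No other tool was run on this list. In the untreated S100A16 KD 4 rose and 45 fell, where 27.6% of all genes rose and 24.8% fell (median log2 -0.34, against 0.06 over all genes). The 4 with the smallest adjusted p all fell. TRIT1, a tRNA isopentenyltransferase, was at log2 -1.56 (adjusted p = 1.34e-10). TBRG4, an RNA-binding protein that keeps some mitochondrial mRNAs stable, was at -1.03 (adjusted p = 3.79e-09). RNASEH1, which removes RNA from RNA-DNA hybrids, was at -0.95 (adjusted p = 3.89e-10), and NSUN2, an RNA cytosine methyltransferase, at -0.83 (adjusted p = 6.62e-11). These need not be the largest falls: SLIRP, also listed, had 4353, 4749 and 4410 unscaled counts in the untreated KD, against 11414, 10932 and 10516 in untreated WT cells. Of the 35 processing and modification genes, 1 rose and 29 fell there. Under H2O2, 5 rose and 40 fell in that KD, where 27.9% of all genes rose and 24.7% fell, and the same genes had the smallest adjusted p: TRIT1 was at -1.45, TBRG4 at -1.13, RNASEH1 at -0.89 and NSUN2 at -0.66.

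In the hnRNPM KD 13 of the 63 machinery genes rose and 20 fell, where 49.1% of all genes were called, 25.4% higher and 23.8% lower (median log2 -0.03, against 0.02 over all genes). RPUSD4, the pseudouridine synthase of the large mitochondrial rRNA, was at 1.88 (adjusted p = 6.5e-14) and REXO2, a nuclease of short RNAs, at 0.52 (adjusted p = 2.41e-08). TRMT5, which methylates a guanosine beside the anticodon, was at -0.50 (adjusted p = 1.72e-07) and NSUN2 at -0.48 (adjusted p = 2.43e-07). In the MagoHB KD 9 rose and 25 fell, where 45.5% of all genes were called, 23.3% higher and 22.3% lower (median log2 -0.13, against 0.04 over all genes). RPUSD4 was at 1.38 (adjusted p = 1.32e-11) and TOP1MT, the mitochondrial topoisomerase, at 0.59 (adjusted p = 8.45e-09). TFAM, which packages mitochondrial DNA and activates its transcription, was at -1.19 (adjusted p = 4.88e-10) and GRSF1, a protein of mitochondrial RNA granules, at -0.68 (adjusted p = 1.46e-08). The part of these genes in the changes of the mitochondrial rows was not tested.

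Copies of mitochondrial DNA in the nuclear genome can take or give reads. The table held 251 such features, of which 53 were tested. Their counts made up 0.308% of all counts in the S100A16 KD under H2O2, 0.326% in the untreated S100A16 KD, 0.426% in the hnRNPM KD, 0.299% in the MagoHB KD, 0.385% in WT cells under H2O2 and 0.389% in untreated WT cells. The largest was MTATP6P1 on chromosome 1, with 21.7% of the mean count of MT-ATP6. MTND2P28 followed with 9.28% of MT-ND2 and MTCO1P12 with 7.7% of MT-CO1. Under H2O2 0 of the 53 were called in WT cells (median log2 0.01, 3 at an unadjusted p under 0.05) and 0 in the S100A16 KD (median -0.29, 15 at an unadjusted p under 0.05) by edgeR, the sole tool run on them. Of all genes, 6.6% in WT cells and 6.77% in the S100A16 KD lay under that unadjusted p. In the KDs set against WT 1 rose and 13 fell (S100A16 untreated), 1 rose and 30 fell (S100A16 under H2O2), 4 rose and 4 fell (hnRNPM), and 2 rose and 23 fell (MagoHB), out of 53 in each. Of all genes 52.3%, 52.5%, 49.1% and 45.5% were called in these 4 comparisons in the same order. Counts of a member and its copy are uncertain, and all 115 calls on members over the 7 comparisons held when copies were summed into the gene they copy.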

How the data were processed

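Gene-level counts of 18 poly(A) A549 libraries, as whole numbers with gene coordinates, and an RPKM table were deposited by the authors. The submitters' processing notes name build GRCh38, HISAT2 2.2.1 and StringTie 2.1.4, and also DESeq2 1.32.0, FastQC 0.11.9 and SAMtools 1.15.1. No source used here names the counting program, its annotation or its use of strand. The deposited RPKM equalled counts per length and total for 100% of 531539 values within a relative tolerance of 0.001. Of counts from 1 to 19, 18.6% to 22% per library were odd. Mates of a read pair were therefore probably both counted.

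Libraries were grouped by the labels. Counts of all 18 libraries were fitted with 1 mean per group by edgeR 4.0.16 (R 4.3.3), with TMM scaling, the filterByExpr filter (22382 genes kept, all 37 members among them) and the robust quasi-likelihood F test. Benjamini-Hochberg adjustment ran over all genes tested, and a gene was called at an adjusted p under 0.05. Levels are TMM-scaled CPM, and RPKM between genes. The 7 comparisons were H2O2 in WT and in the S100A16 KD, their interaction, and each KD against WT. Alternatives were DESeq2 1.42.0, other scalings and filters, the compared groups alone, halved counts, a replicate block and leaving out each library. Summing nuclear copies was chosen after seeing the data. The code was tested on simulated counts. Unused per-sample columns numbered 0.

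Where more than 10 members were called, the 5 highest and 5 lowest log2 fold changes were named, and MT-ND6, MT-RNR1 and MT-RNR2 always. Other members were named to place neighbours. SLIRP aside, machinery genes were named by the smallest adjusted p in each KD comparison, not by the size of the change. The members and lists were chosen with earlier results of these data known.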

Additional observations from a re-analysis of the deposited data

How the results depend on the processing

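With the compared groups alone, which filter, scale and estimate the spread from fewer libraries, 22 members were called for H2O2 in WT, 10 for H2O2 in the S100A16 KD and 9 for the interaction. Over all genes tested, these fits called 555 of 19803, 801 of 20586 and 256 of 21551. The interaction gave 2 with DESeq2 (38 of all 44016 genes) and 4 with every gene of at least 1 count (45 of 44016). For the hnRNPM KD, total counts alone gave 9, where 11187 of 22382 genes were called. Total counts alone turned 6 calls round, in log2: MT-ND5 to 0.0396 and MT-ND6 to 0.0467 in the untreated S100A16 KD, MT-ND1 to 0.0352 and MT-TA to 0.0115 in that KD under H2O2, and MT-TL1 to 0.00799 and MT-TS1 to 0.0159 in the MagoHB KD. None of these 6 was then called. It ended 20 more of the 115 calls on members without a change of sign, and 89 held. Calls ended by other settings numbered 1 with DESeq2, 3 with every gene of at least 1 count, 5 with the compared groups alone and 46 of 690 when 1 library was left out. The other scalings, the filter at 10 counts, halved counts and summed nuclear copies ended 0. Without 1 library, members called ranged from 8 to 9 (H2O2 in WT), 3 to 4 (H2O2 in the S100A16 KD), 0 to 0 (interaction), 24 to 26 (S100A16 KD untreated), 24 to 31 (S100A16 KD under H2O2), 13 to 20 (hnRNPM KD) and 30 to 31 (MagoHB KD). These fits tested 22880 to 23063 genes. Over all genes, the H2O2 comparisons and the interaction gave 40 to 44, 3 to 7 and 13 to 17 calls. The KD comparisons gave, in the same order, 10523 to 10658, 10524 to 10684, 9818 to 10570 and 8912 to 10387. For H2O2, 8 of the 9 members called in WT (MT-CYB aside) and the 3 called in the S100A16 KD stayed called in all 16 alternatives, MT-TW in WT between log2 -0.99 and -0.89. The cause of these shifts was not tested.

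The mitochondrial share of counts was put on the log2 scale in each library, and group means of these values were subtracted. This log2 ratio was -0.39 in the untreated S100A16 KD and -0.34 under H2O2, and with mRNA rows alone -0.33 and -0.24. Without 1 library the ratio ranged from -0.12 to -0.08 (H2O2 in WT), -0.06 to -0.03 (H2O2 in the S100A16 KD), 0.03 to 0.07 (interaction), -0.41 to -0.38 (S100A16 KD untreated), -0.36 to -0.32 (under H2O2), -0.01 to 0.06 (hnRNPM KD) and -0.48 to -0.44 (MagoHB KD).

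Same-numbered libraries of different groups deviated together only weakly (correlations from -0.06 to 0.18), which cannot show whether the numbers pair the samples. The highest, 0.176, was for replicate 3 of the S100A16 KD and WT under H2O2, where other numbers gave at most -0.09. For replicate 3 of the hnRNPM KD and untreated WT it was -0.057, where another number gave 0.066. The replicate block called 9, 3, 0, 26, 29, 20 and 31 members over the 7 comparisons, and the 115 calls all held under it. Of all 22382 genes it called 48, 4, 20, 11553, 11653, 10864 and 9986, in the same order.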
